A study of Mus musculus with 24 samples.

Results

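Mbp, Mog, Mag, Mobp, Cnp, Cldn11, Mal, Opalin and Ermn are myelin and oligodendrocyte genes, and their mRNAs were followed in the nucleus accumbens (Acb) and dorsal striatum (DS) of mice with unphosphorylatable ribosomal protein S6 (rpS6). The 9 genes were chosen by symbol among the 24079 rows of the gene count table, and all 9 were found with reads in every library. The 24 libraries made up 8 groups of 3: wild-type or rpS6 knockin, Acb or DS, and total RNA of the whole tissue lysate (input RNA) or RNA of the heavy polysomal fractions, in which each mRNA carries several ribosomes. The knockin animals (rpS6P-/-) were homozygous for rpS6 in which every serine that can be phosphorylated had been replaced by alanine, and the wild-type animals were littermates from the same heterozygous crosses. Both genotypes were on a mixed C57Bl/6, Sv129 and ICR background, both sexes were used, and the age of the animals is not given in the sources used here. The labels give no treatment for either genotype. Tissue of several animals was pooled for each library, so p-values measure the spread between pools. The knockin carries the alteration in all cells of the animal, oligodendrocytes and neurons alike.

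Oligodendrocytes are the glial cells that wrap axons of the central nervous system in myelin, a stack of membrane rich in cholesterol and in a few abundant proteins. In striatum, the fibre bundles that cross the tissue hold much of the myelin. Messenger RNAs of some myelin proteins, Mbp and Mobp among them, are carried along the processes of the cell and translated close to the growing sheath. Phosphorylation of rpS6, a protein of the small ribosomal subunit, follows activation of the mTOR and ERK pathways, and the comparison of genotypes asked whether it affects which mRNAs are engaged by polysomes in these regions. Counts per gene hold no base calls, so the serine-to-alanine change itself could not be checked from them.

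Library depth ran from 9280589 to 34703044 reads assigned to genes. The members had between 226 reads (Opalin) and 45798 reads (Mbp) in a library. The neuronal transcript Bc1 took 15.2% to 26.1% of reads in lysate libraries and 0.897% to 3.85% in heavy polysomal libraries. Levels are given below as CPM, reads of a gene scaled to a common library size with edgeR's TMM factors, and differences come from edgeR's quasi-likelihood test with Benjamini-Hochberg adjustment over all genes tested, with a gene called at an adjusted p below 0.05. Markers of the medium spiny neuron, the main striatal neuron, were at a summed 5568 to 8885 CPM over 13 genes. None of the 13 was at 0 throughout a group. Their sums were 5568 to 6325 CPM in Acb lysates and 5838 to 6560 CPM in DS lysates, so they do not tell the regions apart. In bulk tissue, fewer oligodendrocytes and less RNA per oligodendrocyte cannot be told apart.

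The genes differ in the letters upstream of their starts. The 250 bases upstream of the annotated start are shown for Mobp, which had the lowest knockin value relative to wild-type in Acb heavy polysomes, for Mag, which had the largest regional difference in the lysate, and for Mal, whose knockin value was next after that of Mobp and which was also higher in the Acb lysate. Sequences are from RefSeq annotation of GRCm38.p6, written 5′ to 3′ on the strand of the gene, with capitals marking ACAAAG or its reverse complement CTTTGT, letters recognised by HMG-box proteins such as the oligodendrocyte factor SOX10.
Mobp, chr9:120149492-120149741, plus strand: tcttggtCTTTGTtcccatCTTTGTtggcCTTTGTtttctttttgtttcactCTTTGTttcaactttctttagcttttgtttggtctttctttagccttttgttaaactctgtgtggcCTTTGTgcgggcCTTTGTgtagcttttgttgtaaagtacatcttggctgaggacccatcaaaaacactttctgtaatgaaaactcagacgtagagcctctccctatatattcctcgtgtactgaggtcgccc
Mag, chr7:30914923-30915172, minus strand: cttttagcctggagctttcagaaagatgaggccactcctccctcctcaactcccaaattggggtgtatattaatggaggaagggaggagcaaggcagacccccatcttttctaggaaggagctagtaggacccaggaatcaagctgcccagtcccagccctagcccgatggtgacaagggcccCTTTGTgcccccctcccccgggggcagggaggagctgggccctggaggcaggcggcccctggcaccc
Mal, chr2:127656696-127656945, minus strand: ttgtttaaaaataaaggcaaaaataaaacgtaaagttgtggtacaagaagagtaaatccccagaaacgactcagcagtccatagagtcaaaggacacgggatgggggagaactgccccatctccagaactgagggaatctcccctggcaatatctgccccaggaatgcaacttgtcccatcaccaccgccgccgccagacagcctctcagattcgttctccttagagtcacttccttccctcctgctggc
Of the 8 members with an entry (no entry was found for Mbp), 4 held the letters at least once, against 16.5% of 32851 promoters of the same length. These were Mobp with 6 copies and Mag, Cnp and Opalin with 1 copy each. A count of 3 or more was found in 45 promoters (0.137%). All 6 copies of Mobp were in the CTTTGT orientation. A match describes the letters only and is not a bound site.

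On GRCm38.p6 the genes span chr18:82475091-82585637 (Mbp), chr9:120149742-120181488 (Mobp), chr17:37010740-37023398 (Mog), chr7:30899175-30914922 (Mag) and chr11:100574909-100591875 (Cnp). Cldn11 spans chr3:31149920-31164326, Mal chr2:127633226-127656695, Ermn chr2:58045115-58052864 and Opalin chr19:41061959-41077113. Reads were counted over whole genes, so isoforms were not told apart.

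Between genes, levels can be compared only per length. In wild-type Acb lysate, Mbp had the most reads per kilobase of the transcript with the longest coding sequence, 295 ± 28.4 CPM per kb (SD, n = 3). Mbp encodes myelin basic protein, which holds the inner faces of compact myelin together. It was followed by Cnp (158 ± 5.87), whose product is a phosphodiesterase of the cytoplasmic channels of myelin, by Cldn11 (107 ± 9.13), which forms the tight junctions between myelin layers, by Mal (96.2 ± 5.53), a proteolipid of membrane sorting, and by Mobp (90.2 ± 5.25), a small basic protein of compact myelin. Mag (71.0 ± 0.603), an adhesion molecule of the membrane that faces the axon, Mog (48.2 ± 0.143), a protein of the outermost myelin surface, Ermn (25.2 ± 2.47), an actin-binding protein of late oligodendrocytes, and Opalin (17.7 ± 2.21), a membrane glycoprotein of mature oligodendrocytes, were lower. Ranges of the 3 libraries overlapped between the neighbours Cldn11 and Mal and between Mal and Mobp, and no other neighbours in this order overlapped. Divided instead by the merged length of all annotated exons, the order changed, with Cldn11 (107) and Cnp (102) above Mal (96.2) and Mbp (86.9), and with Mobp at 20.2 CPM per kb. Some of these loci share sequence with other annotations: Cnp overlaps Dnajc7, and Mbp has 14 annotated coding transcripts and overlaps a pair of other annotated loci. Reads at bases shared on the same strand may have been lost. Counting was strand-specific by the study's methods, and the strands of the overlapping loci were not compared.

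**Figure D1:**
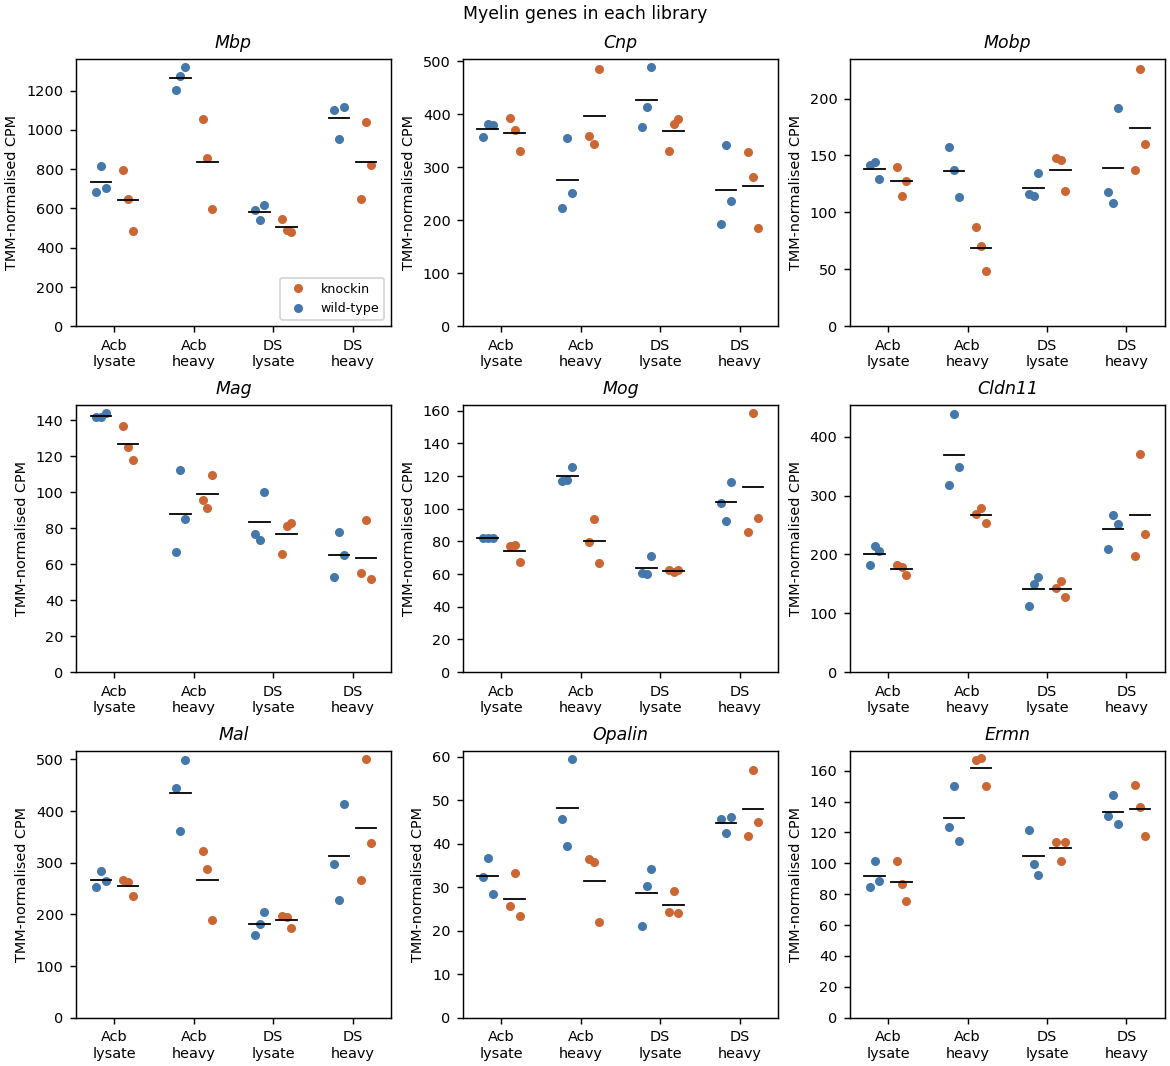
Normalised read counts (CPM, linear axis from 0) of the 9 myelin genes in each of the 24 libraries, by region and kind of RNA, with wild-type and rpS6 knockin in different colours, 1 point per library and a bar at the mean of 3. In Acb heavy polysomes the knockin points of Mobp (48.8 to 87.6 CPM) lie below those of the wild-type (114 to 157 CPM), while in DS heavy polysomes the genotypes overlap for every gene.

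In heavy polysomes of the Acb, 6 of the 9 genes had lower levels in all 3 knockin than in all 3 wild-type libraries, and 1 had higher levels. Mobp was at 157, 137 and 114 CPM in the wild-type and at 87.6, 70.3 and 48.8 CPM in the knockin, a fitted log2 fold change of -0.95 ± 0.20 (SE; 95% interval -1.37 to -0.52). Its highest knockin library lay below its lowest wild-type library. The adjusted p of Mobp was 0.0983 by edgeR's quasi-likelihood test, so the gene was not called.

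Mbp, its companion in compact myelin, was at 1201, 1272 and 1319 CPM in wild-type heavy polysomes and at 1055, 855 and 596 CPM in the knockin. The fitted log2 fold change was -0.56 ± 0.18, with an edgeR adjusted p of 0.119. The genotypes did not overlap, and the knockin libraries spread more widely than the wild-type ones (SD 230.3 against 59.4 CPM).

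Among the membrane proteins, Mal read 445, 362 and 499 CPM in wild-type and 323, 287 and 189 CPM in knockin heavy polysomes. For Mog the corresponding values were 117, 117 and 125 CPM against 79.9, 93.6 and 66.5 CPM. The genotypes were apart for both genes, at log2 fold changes of -0.67 ± 0.19 and -0.55 ± 0.16 and edgeR adjusted p-values of 0.106 and 0.110. Cldn11 was at 318, 438 and 349 CPM in the wild-type and 269, 279 and 254 CPM in the knockin (log2 fold change -0.43 ± 0.16, edgeR adjusted p = 0.148). Opalin was at 45.8, 39.4 and 59.5 CPM against 36.4, 35.7 and 21.9 CPM (log2 fold change -0.59 ± 0.21, edgeR adjusted p = 0.141). Neither of these pairs of groups overlapped, but for Opalin the closest libraries were at 39.4 and 36.4 CPM.

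The remaining 3 genes had higher mean levels in knockin heavy polysomes of the Acb. Ermn was at 123, 149.9 and 114 CPM in the wild-type and at 167, 168 and 150.0 CPM in the knockin. Its groups met without overlapping, at a log2 fold change of 0.36 ± 0.16 and an edgeR adjusted p of 0.203. Cnp was at 224, 355 and 251 CPM against 359.8, 344 and 486 CPM, a log2 fold change of 0.56 ± 0.19 with an edgeR adjusted p of 0.132, and here 1 knockin library lay within the wild-type range. Mag was at 66.6, 112 and 85.1 CPM against 95.5, 91.4 and 109 CPM, and every knockin library lay within the wild-type range (log2 fold change 0.21, 95% interval -0.19 to 0.60).

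None of the 9 was called in this comparison, where edgeR called 0% of 16227 genes. At an unadjusted p below 0.05, 8 of the 9 passed, 6 lower and 2 higher, beside 21.7% of all genes. Groups without overlap were found for 7 of the 9 members and for 25% of all genes. The median log2 fold change of the members was -0.55 and that of all genes was -0.01. DESeq2's Wald test on the same libraries called 6 of the members (Mbp, Mog, Mobp, Cldn11 and Mal lower, Cnp higher) among 1090 genes, so whether single members pass depends on the tool. Without a filter on low counts edgeR called 2 of them, Mobp and Mal, among 549 genes.

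In the Acb lysate the same genes differed little between genotypes. Mobp, at 142, 144 and 129 CPM in the wild-type, was at 140.0, 115 and 127 CPM in the knockin. Mbp was at 685, 817 and 706 CPM against 793, 647 and 485 CPM. These groups overlapped, and only Mog and Mag had lower values in all 3 knockin libraries, by log2 fold changes of -0.16 and -0.18 (8.37% of genes had genotypes without overlap). All 9 log2 fold changes lay between -0.26 and -0.04, with a median of -0.16. None was called (0.0065% of genes were called by edgeR) and none had an unadjusted p below 0.05 (2.96% of genes), nor did DESeq2 call any.

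Whether the genotype difference in heavy polysomes exceeded that in the lysate was tested as an interaction within the Acb. No member was called by edgeR, among 0% of genes called, and 3 members had an unadjusted p below 0.05 beside 11.9% of genes: Mobp (-0.83 ± 0.24, adjusted p = 0.238), Mal (-0.61 ± 0.22, adjusted p = 0.308) and Cnp (0.59 ± 0.23, adjusted p = 0.317). By the study's methods each heavy polysomal fraction came from a lysate that also gave input RNA, matched here by replicate number, and with this pairing as a block edgeR called Mobp (-0.84, adjusted p = 0.0495). Without the block it was called when the first knockin heavy polysomal library was left out (-1.02, adjusted p = 0.0388). Expressed per lysate, the ratio of heavy polysomal to input CPM of Mobp was 0.878 to 1.11 in the wild-type and 0.384 to 0.626 in the knockin. The ratio of Mbp was 1.56 to 1.87 in the wild-type and 1.23 to 1.33 in the knockin. For both genes, the highest ratio of the knockin was below the lowest of the wild-type. The same held for Mog, Mal and Cldn11, while for Ermn every knockin ratio was above every wild-type ratio. How many of all genes had ratios apart was not counted. The interaction of Mbp itself was -0.37 (edgeR adjusted p = 0.537).

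Of the members lower in knockin Acb heavy polysomes, only Mbp also had a fitted value below 0 in DS heavy polysomes. There Mbp was at 1104, 955 and 1116 CPM in the wild-type and at 649, 1039 and 823 CPM in the knockin. The 95% interval of its log2 fold change ran from -0.67 to 0.01. Mobp in heavy polysomes was at 118, 108 and 191 CPM in the wild-type and at 137, 226 and 159.9 CPM in the knockin, with a 95% interval of the log2 fold change from -0.07 to 0.74. Mal was at 298, 227 and 413 CPM against 266, 500.2 and 338 CPM. The genotypes overlapped for all 9 genes (11.1% of genes had no overlap), and 7 of the 9 fitted values were above 0, from -0.33 (Mbp) to 0.33 (Mobp). None was called, beside 0.044% of genes called by edgeR, and none had an unadjusted p below 0.05, beside 6.42% of genes. The second replicate of knockin DS heavy polysomes had the highest level of Mog (159 CPM), Mal (500.2 CPM) and Cldn11 (371 CPM) of all 6 libraries, and without it the median of the members turned from 0.11 to -0.03, with 3 higher and 6 lower. In the DS lysate none of the members was called (0.122% of genes), and 2 members, Mbp and Cnp, had an unadjusted p below 0.05 (9.07% of genes), each at a log2 fold change of -0.23 with edgeR adjusted p-values of 0.389 and 0.461. The interaction of genotype with kind of RNA in the DS gave 0 members called, 0% of genes called and no member with an unadjusted p below 0.05, with values from -0.13 to 0.25. DESeq2 likewise called no member by genotype in either kind of RNA of the DS, nor in the interactions of genotype with kind of RNA in either region.

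**Figure D2:**
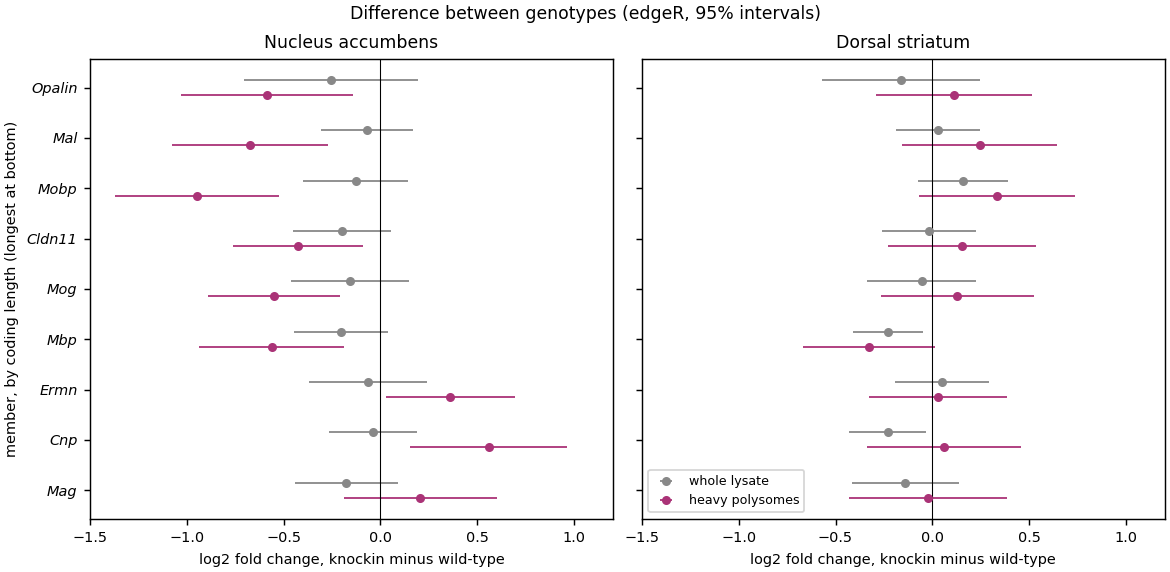
Log2 fold change of each myelin gene between rpS6 knockin and wild-type (horizontal axis) in Acb and DS, for whole lysate and heavy polysomes, with genes ordered by coding length and bars for 95% intervals of the edgeR fit. In Acb heavy polysomes values run from -0.95 (Mobp) to 0.56 (Cnp), and the other 3 sets lie between -0.33 and 0.33.

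The difference between regions in the effect of genotype was itself tested. In heavy polysomes no member was called by edgeR (0.00592% of genes were, and DESeq2 called Mobp), while 5 members had an unadjusted p below 0.05 beside 13.8% of genes. Mobp gave -1.27 ± 0.31 (adjusted p = 0.0870), the genotype difference being that much lower in the Acb than in the DS. Mal gave -0.90 ± 0.32 (adjusted p = 0.200), and Opalin, Mog and Cldn11 gave -0.68, -0.66 and -0.56 with adjusted p-values from 0.272 to 0.344. Mobp was called when either the first Acb knockin or the third DS wild-type heavy polysomal library was left out (adjusted p = 0.0197 and 0.0258), and without a filter on low counts both Mobp (adjusted p = 0.00234) and Mal (adjusted p = 0.0485) were called. In the lysate the members lay between -0.29 and 0.19, with none called, beside 0.00611% of genes called, and none had an unadjusted p below 0.05 or was called by DESeq2.

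Members with short coding sequences had the lower values in knockin Acb heavy polysomes. The longest coding sequence is 459 bases in Mal, 429 in Opalin, 510 in Mobp, 621 in Cldn11, 741 in Mog and 750 in Mbp, and it is 843 in Ermn, 1260 in Cnp and 1881 in Mag. Some members also have much shorter annotated coding transcripts, down to 165 bases in Mbp, 192 in Mag and 207 in Mobp. The order by length therefore rests on the longest form. Spearman's rho between coding length and log2 fold change was 0.82 over the 9 members and 0.40 over 15153 genes with a known coding length, as a description across genes of shared libraries. Among all genes sorted into 20 bins of coding length, the median log2 fold change was -0.65 in the bin of the shortest, centred on 336 bases, and 0.20 in a bin centred on 2382 bases. Once the trend with coding length was removed from each library, Mobp stood at -0.56, Mbp at -0.38, Mog at -0.35, Mal at -0.22, Cldn11 at -0.12 and Opalin at -0.10, and Ermn, Cnp and Mag stood at 0.49, 0.50 and 0.07. In DS heavy polysomes the corresponding rho was -0.70 over the members and 0.03 over 14841 genes.

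**Figure D3:**
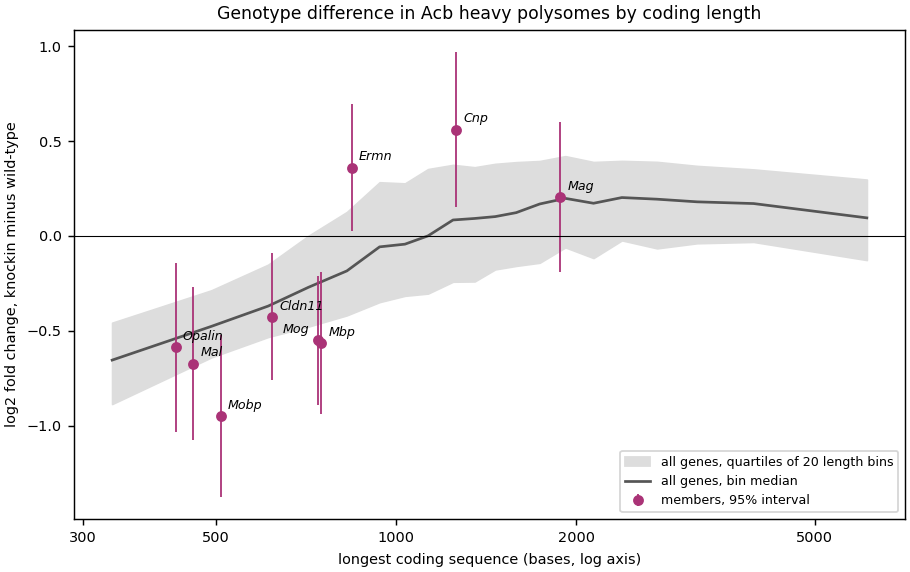
Log2 fold change between rpS6 knockin and wild-type in Acb heavy polysomes (vertical axis) against the longest coding sequence in bases (log axis), with the 9 myelin genes and their 95% intervals over the medians and quartiles of all genes in 20 bins of coding length. Bin medians climb from -0.65 at 336 bases to 0.20 at 2382 bases, and Mobp lies at -0.95 below the bins of similar length.

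Heavy polysomes were compared with the lysate within each region. In the DS, 6 members rose and 2 fell, beside 37% of genes called, 19.5% higher and 17.5% lower. Mal rose from 185 ± 16.5 to 340 ± 101 CPM (SD, n = 6; log2 fold change 0.87), Cldn11 from 142 ± 18.3 to 255 ± 62.3 CPM (0.85) and Mbp from 544 ± 54.4 to 948 ± 182 CPM (0.79). Mog (0.79) and Opalin (0.77) followed, and for these 5 genes the ranges of heavy polysomal and lysate libraries did not overlap, beside 19.4% of genes. Ermn rose by 0.32 with an edgeR adjusted p of 0.0101, a call lost in wild-type or knockin libraries alone (edgeR adjusted p = 0.111 and 0.180).

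Cnp and Mag went the other way in the DS. Cnp was at 397 ± 52.4 CPM in the lysate and at 261 ± 66.5 CPM in heavy polysomes, a log2 fold change of -0.60 with an edgeR adjusted p of 3.78e-05. Mag was at 80.0 ± 11.6 against 64.4 ± 13.9 CPM (-0.31, edgeR adjusted p = 0.0469), a call that was lost without replicate 3 of the wild-type lysate, replicate 2 or 3 of the knockin lysate, or replicate 1 or 3 of the heavy polysomes of either genotype (edgeR adjusted p from 0.0764 to 0.163). The call of Mag was also lost in wild-type or knockin libraries alone (edgeR adjusted p = 0.164 and 0.178) and with another filter on low counts (0.0526). Mobp gave 0.27 with an edgeR adjusted p of 0.0734, and was called without the first or second wild-type or the first knockin heavy polysomal library. With the coding length trend removed Ermn (-0.03), Mag (-0.16) and Opalin were no longer called, and Mobp turned to -0.25.

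In the Acb, 4 members rose and 2 fell in heavy polysomes, beside 29.8% of genes called, 15.6% higher and 14.3% lower. Cldn11 rose from 188 ± 18.4 to 318 ± 68.6 CPM (0.71) and Ermn from 89.8 ± 10.3 to 145 ± 22.2 CPM (0.66), without overlap of libraries (14.3% of genes). Mbp rose by 0.55 (edgeR adjusted p = 0.00129) and Mal by 0.35 (edgeR adjusted p = 0.0413). The call of Mal did not hold with the lysate as a block (edgeR adjusted p = 0.0531) or with DESeq2's Wald test (adjusted p = 0.0582). It was also lost without any wild-type lysate, replicate 3 of the knockin lysate, replicate 1 or 3 of wild-type or replicate 1 or 2 of knockin heavy polysomes (edgeR adjusted p from 0.0568 to 0.137). Mag fell from 135 ± 10.6 to 93.4 ± 16.8 CPM (-0.56, edgeR adjusted p = 7.77e-04), every heavy polysomal library being below every lysate library. In knockin libraries alone the calls of Mag (-0.38, edgeR adjusted p = 0.117), Mbp (0.35, edgeR adjusted p = 0.203) and Mal (0.03, edgeR adjusted p = 0.929) were lost.

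Mobp fell by 0.49 on the log2 scale (edgeR adjusted p = 0.0105) when both genotypes were fitted together in the Acb. In wild-type libraries alone the value was -0.08 and was not called, and in knockin libraries alone it was called. Mog (0.30, edgeR adjusted p = 0.0501), Opalin (0.35, edgeR adjusted p = 0.0879) and Cnp (-0.18) did not pass, but all 3 were called without the third knockin heavy polysomal library, Mog and Opalin also without the second knockin lysate and Mog without the first. In wild-type libraries alone all 3 were called (Mog 0.50, Opalin 0.52 and Cnp -0.48, edgeR adjusted p = 0.00978, 0.0428 and 0.0211), and in knockin libraries alone none was. With the coding length trend removed Ermn, Mal and Mbp lost their calls, Mog turned to -0.08 and Cnp was called lower at -0.42.

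**Figure D4:**
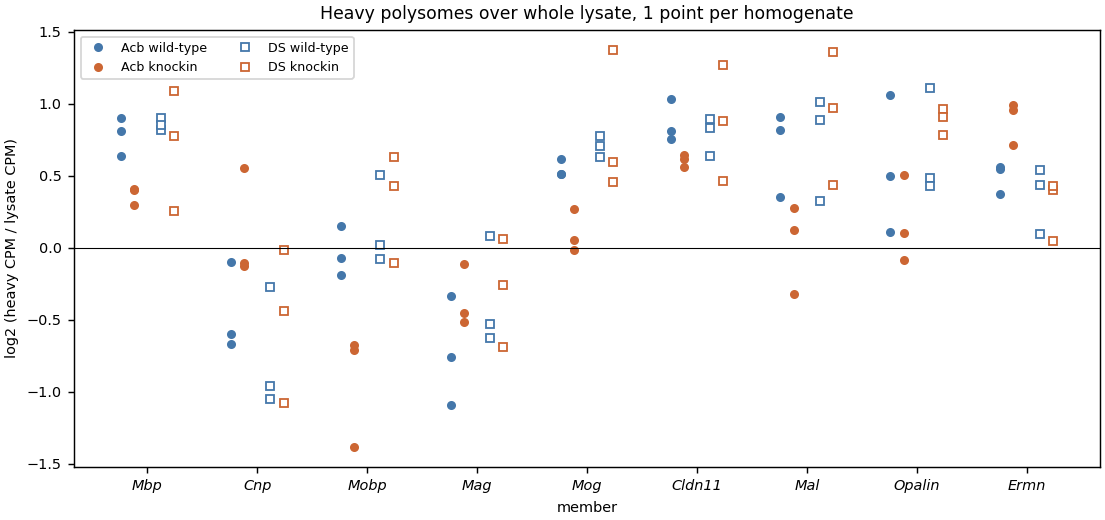
Log2 of the ratio of heavy polysomal to lysate CPM (vertical axis) for each myelin gene, 1 point per lysate, by region and genotype. Mobp of the Acb knockin is below 0 in all 3 lysates, at ratios of 0.384 to 0.626, while Cldn11 is above 0 in every lysate of both regions.

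The heavy-to-lysate difference was compared between regions over all 24 libraries. No member was called by edgeR, beside 0.328% of genes, or by DESeq2, and 5 had an unadjusted p below 0.05 beside 15.1% of genes. Mobp (-0.68, adjusted p = 0.176), Mog (-0.45, adjusted p = 0.241) and Mal (-0.47, adjusted p = 0.291) were relatively lower in the Acb, and Cnp (0.47, adjusted p = 0.251) and Ermn (0.37, adjusted p = 0.245) relatively higher. With the lysate as a block Mobp was called (-0.71, adjusted p = 0.0216). Without the block it was called when the first wild-type Acb or the second wild-type DS heavy polysomal library was left out (edgeR adjusted p = 0.0151 and 0.0484).

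Myelin mRNAs were more abundant in the Acb lysate than in the DS lysate for 5 of the 9 genes, beside 19.3% of genes called, 9.71% higher and 9.56% lower. Mag was at 142, 142 and 144 CPM in wild-type and 136, 125 and 118 CPM in knockin Acb, and at 76.5, 73.4 and 100.2 CPM in wild-type and 65.8, 80.9 and 83.1 CPM in knockin DS. The 2 regions were apart, at a fold of 1.72 (log2 0.78 ± 0.09, edgeR adjusted p = 1.43e-09). Mal was 1.44-fold higher (261 ± 16.0 against 185 ± 16.5 CPM, edgeR adjusted p = 3.71e-07) and Cldn11 1.36-fold higher (188 ± 18.4 against 142 ± 18.3 CPM, edgeR adjusted p = 9.05e-05), also without overlap (10.2% of genes had regions without overlap).

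Mbp (1.30-fold, edgeR adjusted p = 2.08e-04) and Mog (1.27-fold, edgeR adjusted p = 0.00858) were called with overlapping libraries. The call of Mog did not hold within either genotype, nor that of Cldn11 within the knockin, while Mag, Mal and Mbp were called within both. Ermn was at 89.8 ± 10.3 CPM in the Acb and 107 ± 11.1 CPM in the DS (log2 fold change -0.22, edgeR adjusted p = 0.102), and was called without the second wild-type or the first knockin Acb lysate (edgeR adjusted p = 0.0469 and 0.0460). Mobp, Cnp and Opalin lay between -0.07 and 0.17.

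Markers of other cells moved with region in the same lysates, where 19.3% of all genes were called. Of 12 astrocyte markers, 10 were called higher in the Acb, at a summed 2575 to 3539 CPM against 2000 to 2492 CPM, and of 10 microglial markers 8 were called higher, at 248.5 to 342 CPM against 153 to 191 CPM. All 5 markers of cortical excitatory neurons were called lower, at 69.3 to 197 CPM in the Acb lysate against 738 to 962 CPM in the DS lysate, with none at 0 throughout a group. Of 8 endothelial markers none was called, and of 6 choroid plexus markers 2 were called higher (28.8 to 53.3 against 11.1 to 20.5 CPM), with at most 2 at 0 throughout a group. Of the 13 medium spiny neuron markers 4 were called higher and 6 lower. The part of tissue composition, or of cortex within the DS dissection, in the regional difference of the myelin genes was not tested.

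In heavy polysomes 2 of the 9 members were called between regions. Mag was higher in the Acb (93.4 ± 16.8 against 64.4 ± 13.9 CPM, log2 fold change 0.53, edgeR adjusted p = 0.0150) and Mobp lower (102 ± 41.2 against 157 ± 45.2 CPM, -0.68, edgeR adjusted p = 0.0281), beside 19.8% of genes called. The libraries of the regions overlapped for all 9 members, beside 8.42% of genes without overlap. Within the wild-type neither was called and Cldn11 was, so the call of Mobp rested on the knockin. It was also lost without any of 6 single libraries, namely each Acb knockin heavy library, replicate 3 of wild-type DS and replicates 2 and 3 of knockin DS (edgeR adjusted p from 0.0624 to 0.0900). That of Mag was lost without the second wild-type Acb library (edgeR adjusted p = 0.0598). Cnp was called without the second wild-type DS library and Cldn11 without the second knockin DS library. The other 7 members lay between -0.25 and 0.35.

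**Figure D5:**
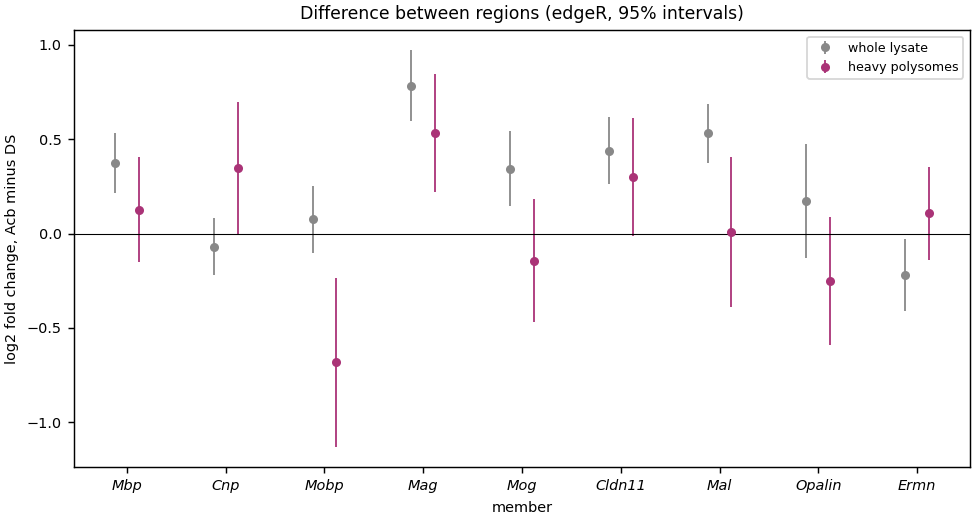
Log2 fold change between Acb and DS (vertical axis) of each myelin gene in whole lysate and heavy polysomes, over both genotypes, with 95% intervals of the edgeR fit. Mag lies above 0 in both kinds of RNA (0.78 and 0.53), and Mobp is at 0.08 in the lysate and at -0.68 in heavy polysomes.

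Other genes of the lineage gave a frame for the members. Among 35 further genes of mature oligodendrocytes, none was called by genotype in Acb heavy polysomes. At an unadjusted p below 0.05, 2 were higher and 9 lower, beside 21.7% of all genes, with a median log2 fold change of -0.08. In the Acb lysate against the DS lysate, 9 of the 35 were called higher and 2 lower, beside 19.3% of all genes called. Plekhb1, a membrane protein of myelin, was at 183 ± 29.4 against 117 ± 8.96 CPM, and Trf, which carries iron, at 213 ± 30.7 against 158 ± 13.1 CPM. Cryab, a small heat-shock protein (log2 fold change -0.30, edgeR adjusted p = 0.0289), and Anln, a cytokinesis protein also found in myelin (-0.46, edgeR adjusted p = 0.0333), were lower, calls that did not hold with DESeq2 or without some of the single libraries.

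Between heavy polysomes and lysate, 9 of these 35 genes rose and 2 fell in the Acb, a share near the 29.8% called among all genes. In the DS 14 rose and 5 fell, beside 37% of all genes called. Apod, a lipid carrier, rose by 0.82 in the Acb and 0.81 in the DS, and Sirt2, a deacetylase of myelin, by 0.61 and 0.71. Cntn2, an adhesion protein beside the node of Ranvier, was at 39.7 ± 7.96 CPM in heavy polysomes and 82.5 ± 2.77 CPM in the lysate of the Acb (-1.09), and it fell likewise in the DS (-1.05). Adamts4, a protease, also fell in both regions.

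Precursor cells were represented by 12 genes. In the lysate 3 were called higher in the Acb and none lower, beside 19.3% of all genes called. They were Lhfpl3 (53.8 ± 10.1 against 23.1 ± 4.15 CPM), Gpr17, a receptor of committed precursors (57.5 ± 8.55 against 29.3 ± 5.30 CPM), and Pdgfra, the growth factor receptor that defines these cells (38.8 ± 7.85 against 23.0 ± 3.73 CPM). In Acb heavy polysomes 6 of the 12 fell relative to the lysate, beside 29.8% of all genes called, 14.3% lower. Pdgfra fell by 0.69 and Tnr by 1.18 on the log2 scale. In the DS 1 rose and 3 fell, beside 37% of all genes called. By genotype in Acb heavy polysomes none of the 12 was called, beside 0% of all genes, Pdgfra giving 0.06 (edgeR adjusted p = 0.883). At an unadjusted p below 0.05, 1 of the 12 was higher and 3 lower, beside 21.7% of all genes. The log2 fold changes of the 12 ran from -0.67 to 0.54.

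Of 10 transcription factors of the lineage, Tcf7l2 alone was called between the lysates, beside 19.3% of all genes called. It was at 21.4 ± 4.48 CPM in the Acb and 5.13 ± 0.95 CPM in the DS, although neurons and astrocytes can also express it. Olig2 and Sox10, which specify the lineage and drive myelin genes, gave 0.08 each between the lysates and were not called. Between regions in heavy polysomes, 4 of the 10 were called higher in the Acb and 0 lower, beside 19.8% of all genes called. Olig2 was among them (0.53, edgeR adjusted p = 0.0288), a call lost under some alternative settings, and Sox10 was not (0.18). By genotype in Acb heavy polysomes Olig2 and Sox10 gave 0.01 and 0.41 (edgeR adjusted p = 0.977 and 0.377). None of the 10 was called, beside 0% of all genes. At an unadjusted p below 0.05, 1 was higher and 1 lower, beside 21.7% of all genes. Between heavy polysomes and lysate, 3 of the 10 rose and 1 fell in the Acb, beside 29.8% of all genes called. In the DS 2 rose and 3 fell, beside 37% of all genes called. Olig1 rose in heavy polysomes of both regions (0.88 in the Acb, 1.02 in the DS) and Olig2 rose in the Acb (0.82). Myrf fell in the DS (-0.80), though not with the coding length trend removed. Sox10 in the DS gave -0.40 (edgeR adjusted p = 0.0490). That call was lost within either genotype and without replicate 2 or 3 of the wild-type lysate, replicate 2 of the knockin lysate, replicate 1 or 3 of wild-type or replicate 2 or 3 of knockin heavy polysomes (edgeR adjusted p from 0.0617 to 0.144).

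Cholesterol synthesis, which supplies the sheath, was followed by 13 genes. None was called by genotype in Acb heavy polysomes, with a median of 0.32. At an unadjusted p below 0.05, 4 were higher and none lower, beside 21.7% of all genes. Between the lysates 2 were called higher in the Acb, Cyp51 (0.55) and Dhcr7 (0.65), beside 19.3% of all genes called in either direction. Another 4 were lower, among them Hmgcs1 (-0.51), the synthase at the start of the pathway. Of 8 genes that carry or regulate Mbp mRNA, none was called by genotype in Acb heavy polysomes (3 higher at an unadjusted p below 0.05, beside the same 21.7%). Relative to the lysate, 2 of these 8 genes rose and 3 fell in heavy polysomes of the Acb, beside 29.8% of all genes called. In the DS 2 rose and 4 fell, beside 37% of all genes called. Qk, an RNA-binding protein needed for myelin mRNAs, rose in both regions (0.52 in the Acb, 0.37 in the DS). Kif1b, a kinesin, fell in both (-1.36 and -1.34). With the coding length trend removed Qk was called in neither region. Of 12 astrocyte markers, 2 were higher and 1 lower by genotype in Acb heavy polysomes at an unadjusted p below 0.05, again beside 21.7% of genes. Their sum was 2175 to 3037 CPM in the wild-type and 2876 to 3187 CPM in the knockin. Of 10 microglial markers none passed.

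Over the 24 libraries the members did not all vary together. The correlation of each member with the mean of the other 8 on the log2 CPM scale was 0.90 for Mog, 0.87 for Cldn11, 0.85 for Mal, 0.84 for Mbp and 0.73 for Opalin. It was 0.23 for Ermn, 0.09 for Mobp, -0.17 for Mag and -0.56 for Cnp. The libraries share region, kind of RNA and genotype, so these values describe the design and give no test. Summed over the 9 genes, the level was 1959 to 2202 CPM in wild-type and 1628 to 2117 CPM in knockin Acb lysates, and 2698 to 2985 CPM against 1921 to 2474 CPM in Acb heavy polysomes. In the DS the sums were 1637 to 1907 CPM against 1575 to 1639 CPM in lysates and 2255 to 2561 CPM against 1911 to 2855 CPM in heavy polysomes.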

How the data were processed

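Total RNA of the lysate and RNA of heavy polysomal fractions from wild-type and rpS6 knockin Acb and DS were sequenced from poly(A)-selected stranded libraries. The authors deposited whole-number counts of reads per gene (not normalised), made, per the labels and the study's methods, with CASAVA 1.8.2, TopHat2 2.0.13, Bowtie2 2.2.3 and HTSeq 0.6.1p1 on mm10. From these counts, genes with at least 15 reads summed over the libraries fitted were tested with edgeR 4.0.16 (R 4.3.3; TMM factors, quasi-likelihood test, Benjamini-Hochberg adjustment). Genotypes were compared within each region and kind of RNA (3 against 3), regions and kinds of RNA with genotype as a covariate (6 against 6), and differences of differences as interactions. DESeq2 1.42.0 was run as an alternative. Every member was named, and from each other list at most 3 called genes per direction by lowest p, with Olig2, Sox10 and Pdgfra always. Another gene that the rule names is not reported here. Members and lists were chosen with earlier results of these data known.

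Coding, transcript and merged exon lengths came from GENCODE annotation, and coding lengths matched 20428 rows. Gene spans and overlaps came from RefSeq (GRCm38.p6). Counts simulated from the Acb heavy libraries, with 200 genes changed by 1.5 on the log2 scale, gave 177 of the 200 among 15884 genes. The same test of the interactions gave 139 (genotype by fraction in the Acb, 16379 genes), 147 (genotype by region in heavy polysomes, 16576 genes) and 173 (fraction by region, 17101 genes). Genes called beside the 200 numbered 9, 10, 6 and 10 in the same order. Every member value in these comparisons was smaller in size than 1.5, the largest being -1.27 (Mobp, genotype by region in heavy polysomes). Each gene was drawn independently, without deviations shared across genes, and the changed genes had at least 50 reads on average. Recovery of genes changed by less than 1.5, or with such shared deviations, was not tested. Heavy polysomal and input libraries are paired because each heavy fraction came from an input lysate, by the study's methods (correlations of paired deviations -0.05 to 0.08 over 12 pairs).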

Additional observations from a re-analysis of the deposited data

How the results depend on the processing

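The count of members called by genotype in Acb heavy polysomes was 0 and became 6 with DESeq2, 2 without a filter and 1 (Mobp) with the replicate block, and the count of all genes ranged from 0 to 1090. For genotype by region in heavy polysomes, 0 became 1 with DESeq2, 2 without a filter and 2 with the replicate block (Mobp and Mal, edgeR adjusted p = 2.52e-04 and 0.0178; 0 to 1 with a library left out). For genotype by fraction in Acb, 0 became 1 with the replicate block, with or without removal of the transcript length trend, and 0 to 1 with a library left out (1 without the first knockin heavy library). For fraction by region, 0 became 1 without a filter, 1 with the replicate block and 2 with the block and the length trend removed (0 to 1 with a library left out, 1 without the first wild-type Acb or second wild-type DS heavy library). Counts fell from 6 to 3 for fraction in the Acb with knockin libraries alone, from 8 to 5 for fraction in the DS with the coding length trend removed, from 2 to 1 for region in heavy polysomes with the coding length trend removed or wild-type libraries alone (1 to 3 with a library left out), and from 5 to 3 for region in the lysate with knockin libraries alone. Removal of the coding length trend was chosen after seeing the data. The causes were not tested.

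Values that changed sign in Acb fraction were Cnp (0.10 with knockin alone) and Mog (-0.0763 with the coding length trend, -0.0066 with the block and the transcript length trend, and -0.0042 with that trend alone removed). In DS fraction they were Mobp (-0.25, -0.12 and -0.10 under the same settings), Ermn (-0.0316) with the coding length trend removed, and Bcl11b, a neuronal marker, at 0.0071 with the block and transcript length trend and 0.017 with that trend alone removed. By genotype in Acb heavy polysomes, Olig2 gave -0.0037 with the transcript length trend removed and -0.11 to 0.22 with a library left out, and Pdgfra gave -0.10 and -0.051 with the coding and transcript length trends removed. Between lysates Olig2 gave -0.12 in knockin alone and Sox10 -0.18 in wild-type alone.

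Of 1116 values of members under the alternatives, 1012 kept their direction and side of the threshold, 48 lost and 48 gained a call and 8 changed sign. Over all comparisons 88 of 2349 values changed sign, 81 of them with an unadjusted p of 0.05 or more in the reported fit. Replicate numbers shared by genotypes or regions (correlations of deviations -0.31 to 0.33, 2 of 12 over 0.1, and -0.28 to 0.24, 1 of 12) are not said by the labels or methods to mark a shared origin, and the block on these numbers changed calls only as given above. All-gene counts under the alternatives were 0 to 37 by genotype in DS heavy polysomes, 1 to 95 in the DS lysate, 0 to 479 for genotype by region in heavy polysomes, 0 to 107 for genotype by fraction in the Acb and 23 to 620 for fraction by region.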

Other observations

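Outside the lists, the 8 genes whose log2 CPM over the 24 libraries was most like the mean of the members, among 11970 genes with at least 50 reads on average, were Tmbim4 (Pearson r = 0.89), Npc2 (0.88), Pxmp2 (0.87), Cmtm5 (0.87), Ormdl3 (0.86), Atp6v0b (0.86), Tspan7 (0.86) and Cst3 (0.86). The points share region, kind of RNA and genotype, so the values are a description and give no test.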
